A study of Mus musculus with 15 samples.

Results

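Interferon-stimulated genes are the genes that cells switch on when an interferon binds its receptor, and 39 of them, chosen by symbol, were followed here across 6 kinds of tissue macrophage of the mouse. All 39 were present among the 24084 genes of the DNA-corrected count table, and all 39 had enough counts to be tested. Mx1 and Mx2 are listed there as non-coding transcripts, so the role given for them is that of the protein family. The symbols fall into 9 groups by the role of the protein: 4 transcription factors, 3 IFIT proteins, 5 members of the OAS family, 5 nucleic acid sensors, 5 MX and GBP GTPases, 2 IFITM proteins, 3 genes of the ISG15 system, 2 PARP proteins and 10 other antiviral effectors.

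The cells were F4/80+CD45+ cells, a pair of surface proteins that marks macrophages among blood-derived cells, sorted directly from tissues of C57BL/6J mice without culture. There were 3 libraries of macrophages from sympathetic ganglia (SAM ganglia; the dissected ganglion was the superior cervical ganglion, SCG), 2 from sympathetic nerve fibers inside inguinal fat (SAM fibers), 2 from the subcutaneous fat beside those fibers (sATM), 2 from visceral fat (vATM), 3 from spleen (SpM) and 3 from brain (microglia). No treatment, allele or time point distinguishes the groups, and the code ND that all titles carry is not explained. Tissues were dissected from 10 mice; the labels do not say whether replicate libraries came from separate animals, so p-values measure only the spread between these libraries, which may be technical. The tissues were digested differently at 37 °C: fat, spleen and brain for 30 min with collagenase, fibers for 30 min with hyaluronidase and then 15 min with collagenase, and ganglia for 10 min with collagenase and then 30 min with trypsin. Digestion and tissue of origin therefore cannot be told apart for the ganglia or for the fibers.

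Type I interferons bind the IFNAR receptor, which activates the transcription factor complex ISGF3, with STAT2 and IRF9 among its subunits. ISGF3 binds a DNA element called the ISRE in the promoters of most of these genes. Interferon gamma acts through a separate receptor and through another DNA element, GAS, and IRF1 is a classical GAS-driven gene. Tissue macrophages carry both receptors and are known to keep some of these genes on at a low tonic level without infection.

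RefSeq promoter sequences (build GRCm38.p6, the same assembly as mm10) were found for 29 of the 39 genes; Mx1, Mx2, Oas2, Usp18, Dhx58, Zbp1, Rtp4, Parp9, Parp14 and Ifi27l2a had no entry. Each window ran from 250 bases before the start site to 50 after it. Both strands were searched for GAAA followed, after any 2 bases, by another GAAA, the core of the ISRE, and for TTCNNNGAA, the GAS element, where N is any base. Overlapping matches were each counted. The ISRE core was present in 16 of the 29 windows and in 3.44% of 32851 RefSeq promoter windows of the same length. The GAS letters were present in 8 of the 29 and in 8.30% of all windows. Only 74.4% of the list has a window, under the 80% needed to read such a share for the list, so nothing is read from these counts. The windows of Ifit1 and Irf1 are shown because Ifit1 was higher in each SAM library than in any other and Irf1 was highest in fibers; the capitals mark the matches, and the sequences read 5′ to 3′ along the gene.
Ifit1, chr19:34640639-34640888, plus strand: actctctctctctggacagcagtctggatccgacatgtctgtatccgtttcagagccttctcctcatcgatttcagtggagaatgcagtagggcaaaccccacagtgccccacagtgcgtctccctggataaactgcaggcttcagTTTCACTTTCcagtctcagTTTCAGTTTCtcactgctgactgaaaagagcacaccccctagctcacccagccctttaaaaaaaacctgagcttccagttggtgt
Irf1, chr11:53769764-53770013, plus strand: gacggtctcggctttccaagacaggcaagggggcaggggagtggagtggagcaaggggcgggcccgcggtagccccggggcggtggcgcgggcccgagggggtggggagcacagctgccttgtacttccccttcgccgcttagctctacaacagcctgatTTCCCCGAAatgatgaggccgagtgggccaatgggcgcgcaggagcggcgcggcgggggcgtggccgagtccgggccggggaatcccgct
Both runs end at the base before the start site. The Ifit1 matches are on the opposite strand and so read as the reverse complement.

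For some of the other genes described below, 1 ISRE core site each is shown with up to 10 flanking bases, the match in capitals. Ifit3 and Ifitm3 held 2 such sites and Isg15 held 3 that overlap. The RefSeq windows of Irf7, Ifi44, Oasl1 and Samd9l, which are described below, held no match to either set of letters.
Ifit3, chr19:34583397-34583426, plus strand: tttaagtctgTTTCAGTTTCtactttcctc
Oas3, chr5:120777715-120777744, minus strand: gcagggaggaGAAAACGAAAgtgaagggag
Rsad2, chr12:26456553-26456582, minus strand: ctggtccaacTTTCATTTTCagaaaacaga
Ifitm2, chr7:140955988-140956017, minus strand: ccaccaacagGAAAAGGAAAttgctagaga
Ifitm3, chr7:141010723-141010752, minus strand: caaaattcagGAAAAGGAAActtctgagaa
Isg15, chr4:156200871-156200900, minus strand: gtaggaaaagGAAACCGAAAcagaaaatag
Stat2, chr10:128270266-128270295, plus strand: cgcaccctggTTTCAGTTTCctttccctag
Ddx58, chr4:40239804-40239833, minus strand: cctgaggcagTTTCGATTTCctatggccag
Ifih1, chr2:62646206-62646233, minus strand: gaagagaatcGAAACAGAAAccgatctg
Ifitm2 and Ifitm3, neighbours on chromosome 7, carry the same 10 letters at the match shown. In Ifit3 the match shown lies 122 to 113 bases before the start site and the other 156 to 147 bases before it. Ifit1 has its matches at 104 to 95 and 85 to 76 bases before it.

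The corrected tables held 2546323 to 12515866 counts per library (median 5931282), and 46.1% to 71.5% of them lay in genes that collect ribosomal RNA reads. Levels below are counts-per-million values (CPM) after TMM scaling, and 3 counts correspond to 0.249 to 0.897 CPM depending on the library. The authors had subtracted an estimate of DNA-derived reads, and 2 libraries stood apart by that background: the raw CPM (before the subtraction and without TMM scaling) summed over olfactory receptor genes, silent in macrophages, was 1233 in SAM fibers 1 and 1085 in microglia 2, against 32.9 to 857 elsewhere. The corrected counts of the 39 genes were 24.4% of their raw counts in SAM fibers 1 and 16.5% in microglia 2, against 35.2% to 57.0% in the other libraries. These 2 libraries also held 16 of the 21 member values listed at 0 (7 in SAM fibers 1 and 9 in microglia 2), each with raw reads over the gene, so a 0 can be a failed estimate and is given as listed. The 2 fiber libraries correlated with each other at r = 0.605 over genes, below the 0.781 to 0.959 of the other pairs within a group. F4/80 (Adgre1) and CD45 (Ptprc) were detected in every library, and microglia, spleen and visceral fat were each the highest group for the summed markers of microglia, red pulp macrophages and resident adipose macrophages. Markers of other cell types were present in the SAM libraries. Summed sympathetic neuron markers were 95.9 to 129 CPM in ganglia and 249.2 to 676 CPM in fibers, against at most 51.7 CPM elsewhere. Erythroid markers were 640 to 896 CPM in ganglia and 1660 to 4642 in fibers, against at most 653 elsewhere. Schwann and satellite glia markers were 50.6 to 215 CPM in ganglia and 230 to 456 in fibers, against at most 55.6 elsewhere. Microglia markers were 2214 to 2644 CPM in ganglia, against at most 814 in fibers, fat and spleen.

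The 39 genes were lowest in microglia and were not uniformly high in any other group. Their summed level was 369 to 600 CPM in microglia, 1275 to 2036 in spleen, 1540 to 1638 in vATM, 1879 to 2169 in fibers, 1927 to 2313 in ganglia and 2767 to 2853 in sATM. The sum is dominated by Ifitm2 and Ifitm3, which code for membrane proteins that block viral fusion. Without them it was 346 to 556 CPM in microglia, 722 to 789 in vATM, 726 and 1384 in the 2 fiber libraries, 948 to 1562 in spleen, 1420 and 1479 in sATM and 1537 to 1761 in ganglia. Microglia were below every other library on both sums, and the 2 fat groups did not overlap on either.

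By mean CPM, 15 genes were highest in ganglia, 10 in sATM, 9 in spleen and 5 in fibers, and none was highest in vATM or microglia. The genes highest in ganglia included all 3 IFIT genes and 4 of the 5 OAS family genes, those highest in spleen included Irf7, Stat2, Ifih1 and Dhx58, and those highest in fibers were Irf1, Ifitm2, Isg15, Mx2 and Gbp2. Microglia were lowest for 24 genes, fibers for 9, vATM for 5 and spleen for 1 (Isg20). On the authors' RPKM scale, which divides by gene length and uses another library total, 17 genes were lowest in microglia and 17 in vATM.

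The genes also differed widely from each other. On the RPKM scale Ifitm3 was the most abundant of those compared here, at 48.3 to 1814 RPKM over the 15 libraries, whereas Isg15, a ubiquitin-like protein that is conjugated to other proteins after interferon exposure, was at 0.302 to 11.8 RPKM. Over the 15 libraries the correlation between pairs of the 39 genes on log2(CPM + 1) had a median of 0.50, from −0.38 to 0.97 over 741 pairs. The closest pairs were Ifitm2 with Ifitm3 (0.97), Oas1a with Mx1 (0.95) and Ddx58 with Parp9 (0.94). All pairs share the same libraries, their depth and their background correction, so these values are a description.

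**Figure D1:**
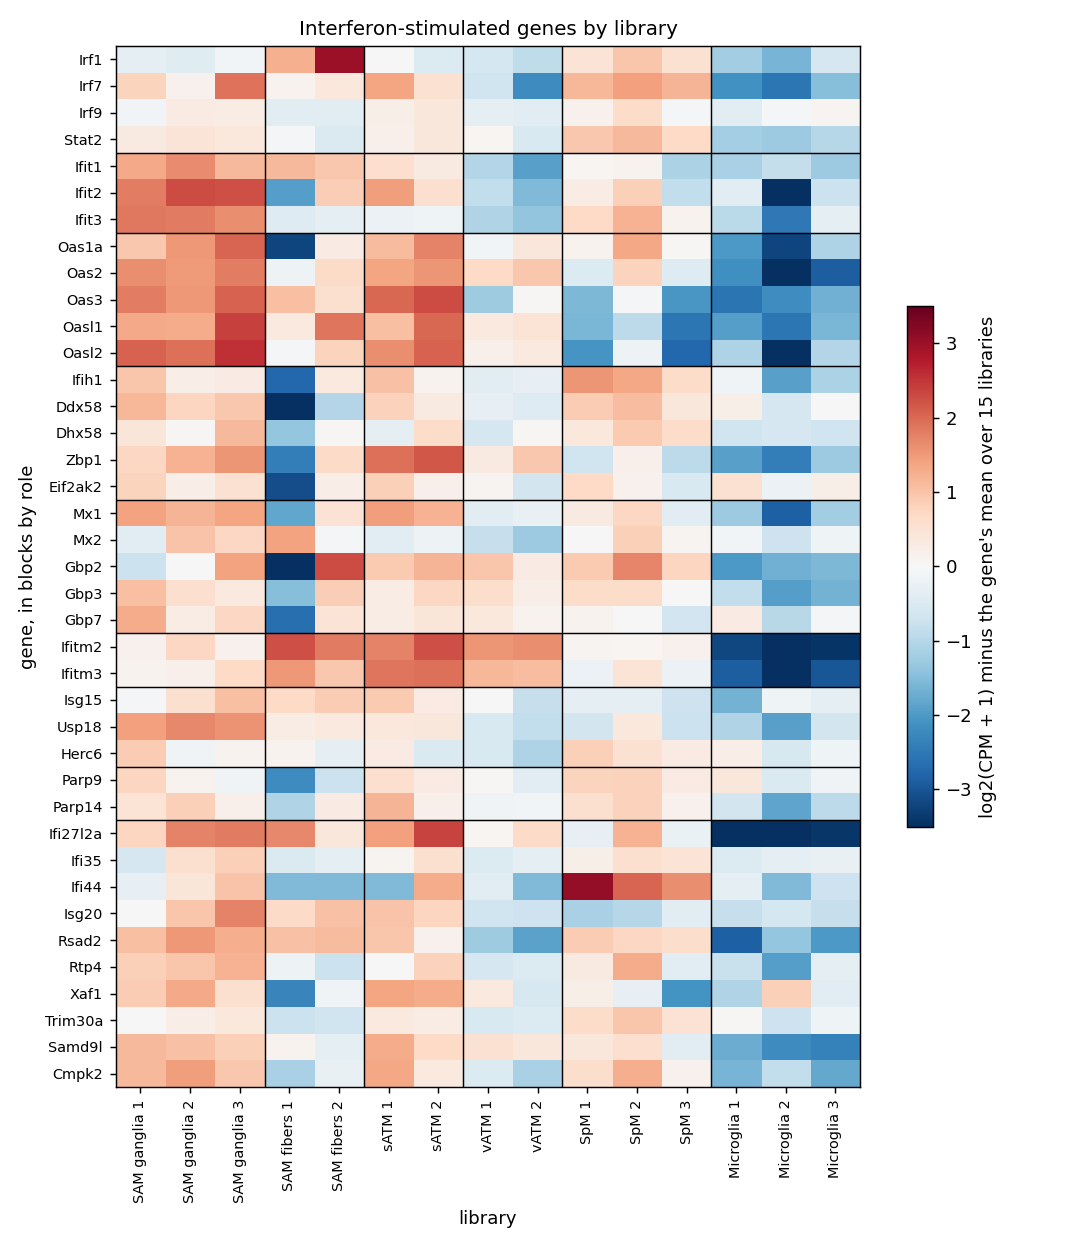
Level of each of the 39 genes (rows, in blocks by role) in each of the 15 libraries (columns) as log2(CPM + 1) minus the gene's mean over libraries, red above and blue below that mean. The 3 microglia columns are blue for the OAS and IFITM blocks, and SAM fibers 1 is blue for most sensors, with 7 genes listed at 0 there.

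The 39 genes were chosen with earlier results of these data known, so their counts beside the share of all genes are only a description. Across the 6 groups, 24 of the 39 genes differed (edgeR quasi-likelihood F-test, Benjamini-Hochberg adjusted p below 0.05), where 22.2% of all 15289 genes tested did. They were 3 of 4 transcription factors (all but Irf9), all 3 IFIT genes, 4 of 5 OAS family genes (all but Oas1a), both IFITM genes, 1 of 5 sensors (Zbp1), 1 of 5 GTPases (Mx1), Usp18, Parp14 and 8 of the 10 other effectors (all but Xaf1 and Ifi35). The sensors Ddx58 (RIG-I), Ifih1 (MDA5) and Dhx58 (LGP2), which detect viral RNA in the cytosol, and the RNA-activated kinase Eif2ak2 (PKR) did not pass this test. The 6 genes with the smallest p follow.

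Ifitm3 stood at 1081 and 1135 CPM in sATM, 855 and 565 in fibers, 665 and 623 in vATM, 320.4, 336 and 483 in ganglia, 255, 409 and 259 in spleen, and 38.9, 22.5 and 36.5 in microglia. Every microglia library lay below every other library. Its adjusted p was 6.3e-07. Ifitm2 was likewise lowest in microglia, with 207 and 298 CPM in sATM, 297 and 220 in fibers, 184 and 195 in vATM, 69.3, 102 and 69.4 in ganglia, 66.8, 64.8 and 68.2 in spleen, and 5.88, 0 and 4.86 in microglia (adjusted p = 3.83e-05, edgeR). Fat and fiber libraries did not overlap with ganglion or spleen libraries for Ifitm2, and for Ifitm3 they lay above them throughout as well.

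Samd9l, an antiviral factor that restrains translation, was at 95.3, 87.1 and 76.8 CPM in ganglia, 46.0 and 33.3 in fibers, 105 and 69.9 in sATM, 56.5, 64.5 and 32.7 in spleen, 62.3 and 56.0 in vATM, and 12.03, 8.42 and 7.45 in microglia (adjusted p = 4.93e-05, edgeR). Microglia alone did not overlap with any other group. Rsad2 (viperin, an enzyme that makes a chain-terminating nucleotide) was at 44.6, 61.9 and 52.0 CPM in ganglia, 43.0 and 45.6 in fibers, 41.5 and 23.1 in sATM, 39.1, 34.8 and 32.6 in spleen, 8.26 and 4.92 in vATM, and 1.99, 7.58 and 4.41 in microglia (adjusted p = 7.73e-05, edgeR). Visceral fat and brain formed the low end for Rsad2, with no overlap with the other 4 groups.

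Ifi27l2a, a small hydrophobic protein that type I interferon induces, was at 27.5, 55.3 and 59.0 CPM in ganglia, 53.8 and 21.4 in fibers, 16.8 and 25.8 in vATM, 44.8 and 87.0 in sATM and 12.9, 38.4 and 13.4 in spleen. In microglia it was listed at 0, 0 and 0.608 CPM (adjusted p = 0.000127, edgeR). Microglia 1, listed at 0, held 1407 raw counts over this gene, and over all libraries only 7.47% of its raw counts were left after correction, the lowest share among the 39. Raw CPM were 71.8, 29.4 and 55.8 in microglia and 67.9 to 370 in the other groups, so the ranges met there.

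**Figure D2:**
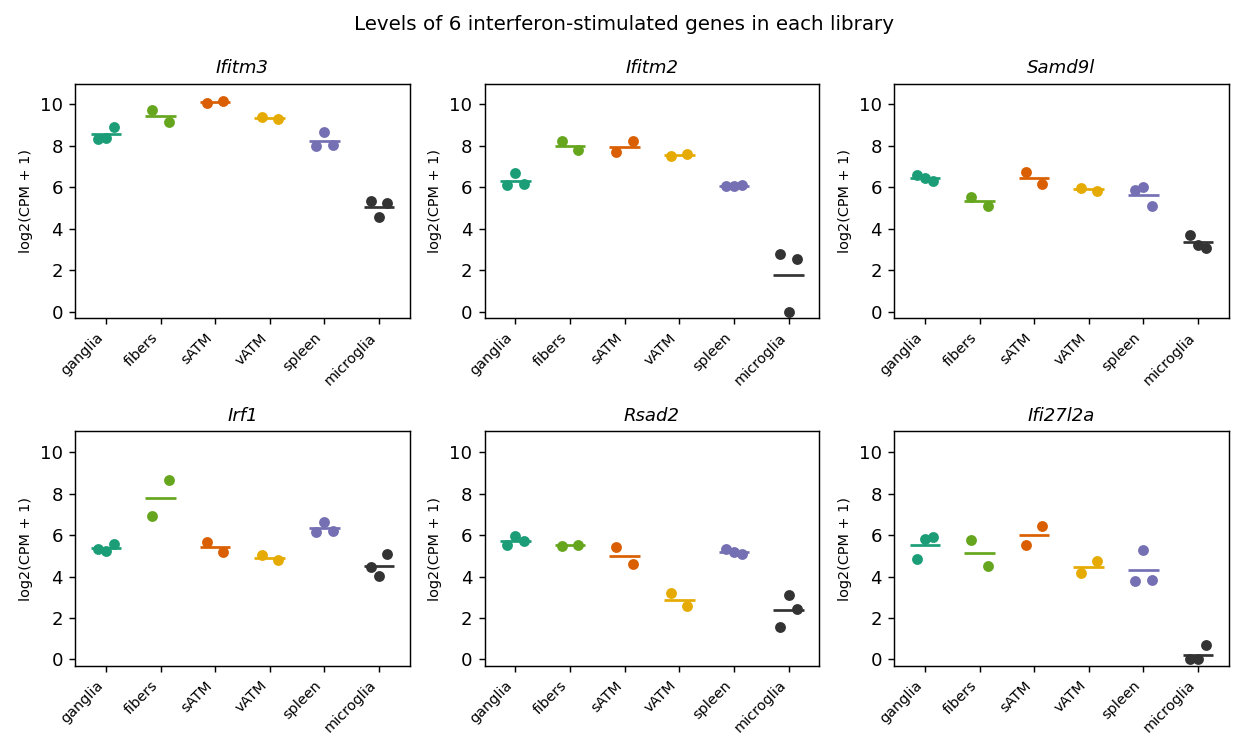
Levels of the 6 genes with the smallest p for any difference among groups, as log2(CPM + 1) by group; points are libraries and bars are group means of the plotted values. The microglia points lie lowest for Ifitm3, Ifitm2, Samd9l and Ifi27l2a, and the fiber points lie highest for Irf1.

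Irf1, a transcription factor induced by interferons and by inflammatory signals, had a pattern of its own. It was at 120.2 and 404 CPM in fibers, 70.3, 97.7 and 71.8 in spleen, 50.4 and 35.6 in sATM, 39.7, 37.1 and 46.9 in ganglia, 32.0 and 26.4 in vATM, and 20.8, 15.4 and 32.8 in microglia (adjusted p = 5.82e-05, edgeR). Both fiber libraries lay above all others, and spleen lay above the other 4 groups. The 2 fiber libraries agreed poorly before correction: Irf1 had 35.0 raw CPM in SAM fibers 1 and 233 in SAM fibers 2, so on the raw scale SAM fibers 1 lay below the ganglion, fat and spleen libraries. Irf1 also shares its locus on chromosome 11 with Gm17334 on the opposite strand, and whether counting used strand is not given in the sources used here.

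**Figure D3:**
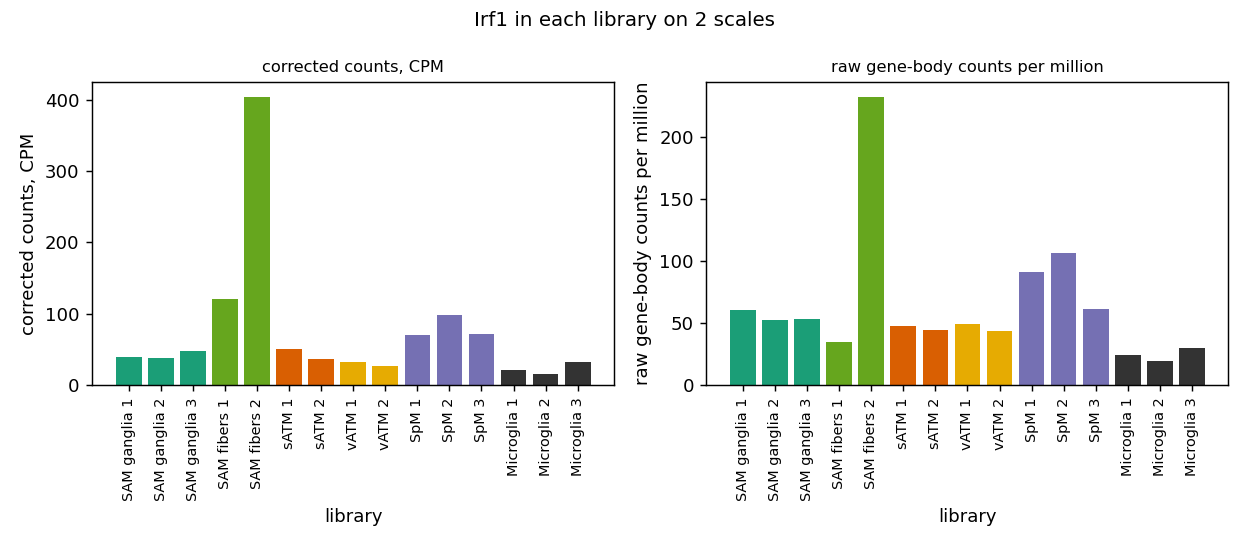
Irf1 in each library, as CPM of DNA-corrected counts (left) and as raw CPM of gene-body counts (right), bars coloured by group. SAM fibers 2 is highest in both panels (404 and 233), while SAM fibers 1 is next on the left (120.2) and below the ganglia on the right (35.0).

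The first comparison of the design sets sympathetic-associated macrophages, from ganglia and fibers, against the other 4 groups, with groups weighted equally on the log scale. In it 11 of the 39 genes were called higher (adjusted p below 0.05 and a log2 fold change of at least 1) and none lower. Of all genes tested, 9.15% were called, 5.71% higher and 3.44% lower. At an unadjusted p below 0.05, 17 were higher and 1 lower in edgeR, where 28.6% of all genes passed in either direction, and DESeq2 called 16 higher and 0 lower. The median log2 fold change of the 39 was 0.65, and that of all genes was 0.02. The called genes were Irf1, 2 of 3 IFIT genes, 3 of 5 OAS family genes, Ifitm2, Usp18, and the effectors Ifi27l2a, Isg20 and Rsad2. No sensor, GTPase or PARP gene was called. A call here does not mean that both SAM groups were high. Ifitm2 in ganglia, at 69.3 to 102 CPM, lay below all fat libraries, at 184 to 298. Its lowest values, 0 to 5.88 CPM, were those of microglia, 1 of the 4 groups compared against. Irf1 in ganglia, at 37.1 to 46.9 CPM, lay below spleen, at 70.3 to 97.7.

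Ganglia and fibers were alike for some of these genes and not for others. Ifit1, which binds viral RNA lacking a host-type cap, was at 36.0, 45.7 and 31.7 CPM in ganglia and 31.4 and 27.7 in fibers. It was at 21.4 and 17.5 CPM in sATM, 14.7, 15.3 and 5.93 in spleen, 6.35 and 2.95 in vATM, and 5.797, 7.30 and 5.17 in microglia. Every SAM library lay above every other library, and the log2 fold change was 1.89 ± 0.26 (SE; adjusted p = 0.000177, edgeR). For Rsad2, with the levels given above, it was 1.84 ± 0.26 (adjusted p = 0.000204, edgeR). In CPM the SAM libraries lay narrowly above all others, from 43.0 against at most 41.5 in sATM. That order did not hold on the other scales. SAM fibers 1 was at 9.39 RPKM and 13.2 raw CPM, against 10.8 RPKM and 27.0 raw CPM in SpM 1.

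The OAS family makes the messenger 2-5A, which activates RNase L, and Oasl1 is an OAS-like protein that lacks this activity. Oasl1 was at 13.6, 13.1 and 29.7 CPM in ganglia, 6.28 and 20.4 in fibers, 6.35 and 7.005 in vATM, 10.9 and 22.2 in sATM, 0.915, 2.08 and 0 in spleen, and 0.519, 0 and 0.912 in microglia. The fat libraries overlapped with the SAM libraries, the low values were those of spleen and microglia, and the log2 fold change was 2.49 ± 0.52 (SE; adjusted p = 0.00573, edgeR). Oas3 was at 36.5, 30.0 and 44.9 CPM in ganglia and 21.8 and 15.2 in fibers, and at 42.8 and 52.2 in sATM. It was at 2.66, 9.52 and 1.67 CPM in spleen, 3.59 and 10.2 in vATM, and 0.865, 1.40 and 2.43 in microglia. The sATM libraries were at the level of the ganglia, and the log2 fold change was 1.91 ± 0.37 (SE; adjusted p = 0.00316, edgeR).

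Isg20, an RNA exonuclease, was at 8.08, 16.3 and 28.9 CPM in ganglia, 13.2 and 17.1 in fibers, 16.8 and 13.9 in sATM and 3.08 to 5.78 in the other 8 libraries. SAM and sATM libraries overlapped, both above the rest, and the log2 fold change was 1.47 ± 0.31 (SE; adjusted p = 0.00573, edgeR). Ifi27l2a had 2.24 ± 0.41 (SE; adjusted p = 0.00226, edgeR), and its SAM levels overlapped with those of sATM, vATM and spleen. In raw gene-body counts its difference turned to −0.68 (adjusted p = 0.715).

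Other interferon genes are given from lists of the pathway. Of 18 interferon genes listed, 5 had enough counts to test and 0 were called. At an unadjusted p below 0.05 in edgeR 1 was higher, and DESeq2 called 1. Ifnb1, interferon beta, was at 13.7 CPM in SAM fibers 1 and at most 3.01 CPM in every other library. SAM fibers 1 had the highest DNA background, 1233 raw CPM over olfactory receptor genes. The part of that background in the Ifnb1 value was not tested. Of 10 receptor and signal transducer genes, 0 were called (2 higher and 1 lower at an unadjusted p below 0.05; DESeq2 called 0). Of 56 other interferon-stimulated genes tested, 6 were higher and 1 lower. Cxcl10, a chemokine induced by interferons, was at 39.7, 85.5 and 98.7 CPM in ganglia, 96.8 and 368 in fibers and at most 38.0 elsewhere, with a log2 fold change of 3.54 ± 0.33 (SE; adjusted p = 3.52e-06, edgeR). The signalling inhibitor Socs3 was also higher, by 3.79 ± 0.24 (SE; adjusted p = 5.04e-08, edgeR). Of 12 immunity-related GTPase and other GBP genes, 2 were lower, Irgm2 and Gbp8, both of which were highest in spleen.

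Several measures moved with this comparison. The summed level of 12 immediate-early and heat-shock genes, which dissociation of tissue can induce, was 10940 to 13200 CPM in ganglia, 22238 to 31096 in fibers, 6494 to 9133 in sATM, 5835 to 7062 in vATM, 107 to 135 in spleen and 188 to 214 in microglia; all 12 were called higher in SAM, and their part in the result was not tested. In raw gene-body counts, before the authors' DNA correction, none of the 39 genes was called and the median of the 39 was −0.20, while 17 of all genes were called. Without the 2 fiber libraries all 39 genes were higher in ganglia than in the mean of the other groups and 17 were called; without SAM fibers 2 alone 16 were called, 10 higher and 6 lower.

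**Figure D4:**
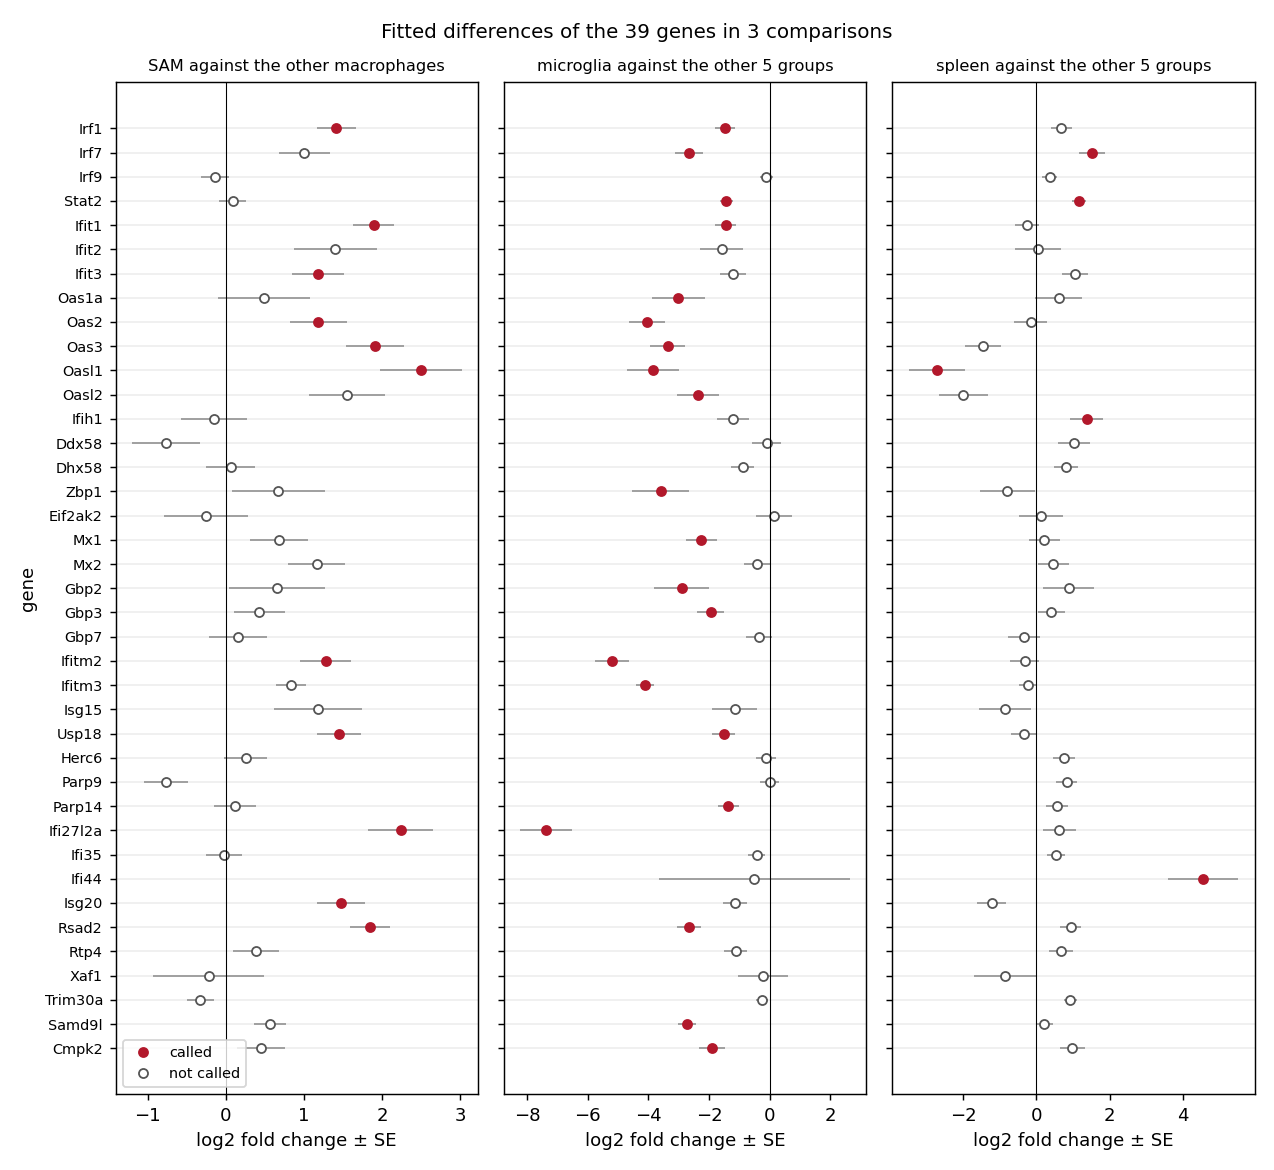
Log2 fold change with its standard error of each of the 39 genes in 3 comparisons (edgeR), filled red points where called. In the microglia panel the called genes all lie left of 0; Ifi44 is left out of the first panel because both fiber libraries list it at 0.

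Microglia showed the widest difference. In them 21 of the 39 genes were called lower and 0 higher than in the mean of the other 5 groups (edgeR), where 13.7% of all genes were called, 6.47% lower and 7.26% higher. At an unadjusted p below 0.05 there were 27 lower and 0 higher, where 26.2% of all genes passed in either direction, DESeq2 called 25 lower and 0 higher, and voom called 22 lower and 0 higher. The median log2 fold change of the 39 was −1.45, and that of all genes was 0.29. Lower were Irf1, Irf7 and Stat2, all 5 OAS family genes, both IFITM genes, Ifit1, Zbp1, Mx1, Gbp2, Gbp3, Usp18, Parp14 and 4 other effectors. The 18 genes not called included Irf9, the RNA sensors Ddx58, Ifih1 and Dhx58, Eif2ak2, Ifi35, Trim30a, Herc6 and Gbp7.

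The IFITM genes had the firmest differences: the log2 fold change was −5.21 ± 0.56 (SE; adjusted p = 6.13e-06, edgeR) for Ifitm2 and −4.12 ± 0.30 (SE; adjusted p = 8.63e-08) for Ifitm3, at the library levels given above. Both calls held in each of the alternative analyses, raw counts included. Oas2 was at 80.6, 73.5 and 91.5 CPM in ganglia, 22.7 and 41.0 in fibers, 41.9 and 50.3 in vATM, 68.0 and 77.5 in sATM, 18.0, 44.5 and 18.6 in spleen, and 5.02, 0 and 2.58 in microglia. Its log2 fold change was −4.05 ± 0.59 (SE; adjusted p = 0.00012, edgeR), it held in each alternative, and no library of another group reached down to the microglia values. Oas3 and Oasl1, whose library values are given above, had −3.37 ± 0.59 (adjusted p = 0.000632, edgeR) and −3.84 ± 0.86 (adjusted p = 0.00502); for both, spleen values lay close to those of microglia.

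Ifi27l2a had the widest fitted difference, −7.38 ± 0.85 (SE; adjusted p = 1.11e-05, edgeR), but only 1 of 3 microglia libraries lists any count for it. In raw gene-body counts its difference was −1.89 with an adjusted p of 0.409. In those raw counts 4 of the 39 genes were called lower in microglia: Ifitm2, Ifitm3, Irf7 and Oas2.

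Some genes upstream of interferon production went the other way in microglia. Of 13 sensors and adaptors that lead to interferon production, 3 were higher and 1 lower. Tmem173 (STING, the adaptor for cytosolic DNA sensing) was at 317, 356 and 409.6 CPM in microglia against 17.8 to 125 elsewhere, a log2 fold change of 2.75 ± 0.24 (SE; adjusted p = 5.7e-07, edgeR). Tlr3, a receptor for double-stranded RNA, was at 60.3, 45.7 and 42.3 CPM against at most 14.7 elsewhere, with 5.04 ± 0.38 (SE; adjusted p = 2.44e-07, edgeR). Tlr7 was higher by 1.10 and Ikbke, a kinase that activates IRF3, fell by 3.84 on the log2 scale.

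Among receptors and transducers, 1 of 10 was called, Ifngr1, the interferon gamma receptor chain, which was higher by 1.19 ± 0.20 (SE; adjusted p = 0.000438, edgeR). Of 56 other interferon-stimulated genes, 18 were lower and 3 higher, and of 12 immunity-related GTPase and other GBP genes, 6 were lower and 1 higher. Ifi47 was at 1.47, 2.53 and 0 CPM in microglia and 19.4 to 62.1 elsewhere, whereas Irgm2 was at 73.0, 35.1 and 62.6 CPM and higher by 1.37 ± 0.28 (SE; adjusted p = 0.00217, edgeR). Of 14 MHC class I processing genes, 4 were lower; H2-D1, a class I heavy chain, was at 219, 238 and 314 CPM in microglia and 783 to 1942 elsewhere.

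Microglia and spleen share low immediate-early and heat-shock sums, 188 to 214 and 107 to 135 CPM. Monocyte markers summed to 18.5 to 74.9 CPM in microglia and 29.3 to 54.5 in spleen, and to 581 to 3847 in the other groups. The part of either sum in the difference was not tested. In a bulk library, fewer cells of a type that carries a gene and less RNA per cell cannot be told apart.

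Spleen macrophages differed in both directions. Set against the average of the remaining groups, spleen had 4 of the 39 genes higher and 1 lower (edgeR), where 12.4% of all genes were called, 6.72% higher and 5.72% lower. At an unadjusted p below 0.05, 14 were higher and 4 lower, where 23.2% of all genes passed in either direction; DESeq2 called 4 higher and 4 lower, and voom 9 and 4. Without SpM 1 there were only 2 calls, Irf7 and Stat2, where 1464 of all genes were called. Without SAM fibers 2, which leaves 1 fiber library, the all-gene median moved from −0.03 to 0.07. The share called higher, 4 of 39, is close to that of all genes, and the median log2 fold change of the 39 was 0.47 against −0.03 for all genes. The genes called higher were 2 transcription factors, 1 sensor and 1 effector, and the gene called lower was of the OAS family.

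Ifi44, an interferon-induced cytosolic protein, was at 23.5, 11.05 and 7.91 CPM in spleen. It was at 1.39, 2.92 and 4.81 CPM in ganglia, 1.20 and 0 in vATM, 0 and 6.09 in sATM, 1.30, 0 and 0.760 in microglia, and 0 in both fiber libraries. All spleen libraries lay above all others in these corrected values. The fitted log2 fold change was 4.54 ± 0.96 (SE, adjusted p = 0.0039, edgeR), a size that depends on how the listed zeros are treated. In raw CPM the libraries overlapped. Spleen was at 22.0, 13.8 and 11.5 raw CPM, against 18.1 in SAM fibers 1, listed at 0, and 14.1 in SAM ganglia 3. Irf7, the factor that amplifies interferon production, was at 48.2, 59.3 and 49.8 CPM in spleen, 37.2, 23.8 and 81.6 in ganglia, 57.3 and 31.3 in sATM, and 23.02 and 27.7 in fibers. It was at 12.7 and 3.81 CPM in vATM and 4.15, 2.81 and 6.84 in microglia. Spleen overlapped with ganglia and sATM, and the log2 fold change of 1.52 ± 0.35 (SE; adjusted p = 0.0061, edgeR) stayed called in every alternative.

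Stat2, a subunit of ISGF3, was at 83.0, 96.4 and 70.9 CPM in spleen, 54.0, 58.8 and 55.6 in ganglia, 44.9 and 29.5 in vATM, 48.9 and 57.1 in sATM, 40.7 and 30.2 in fibers, and 18.3, 17.1 and 21.0 in microglia. Every spleen library lay above every other library, and the log2 fold change was 1.15 ± 0.19 (SE; adjusted p = 0.000357, edgeR). Ifih1 was at 72.2, 62.5 and 37.9 CPM in spleen, 47.8, 28.3 and 29.3 in ganglia, 18.3 and 19.3 in vATM, 49.9 and 26.3 in sATM, 2.69 and 30.6 in fibers, and 21.8, 5.61 and 10.6 in microglia. The groups overlapped, and its log2 fold change of 1.37 ± 0.44 (SE; adjusted p = 0.0481, edgeR) lost its call in 14 of 25 alternatives (adjusted p 0.00028 to 0.502). Oasl1, at 0.915, 2.08 and 0 CPM in spleen, had −2.72 ± 0.77 (SE; adjusted p = 0.0244, edgeR) and lost its call in 5 of 25.

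The wider pathway showed a set of GTPase genes high in spleen, while other lists went in both directions. Of 56 other interferon-stimulated genes, 8 were higher and 4 lower. Of 13 sensors and adaptors, 2 were higher and 1 lower, with Tlr3 higher by 2.60 on the log2 scale. Of 9 other interferon regulatory factors, 0 were higher and 2 lower. Of 12 immunity-related GTPase and other GBP genes, 7 were higher and 0 lower. These genes are driven largely by interferon gamma, and some of their proteins disrupt the vacuoles of intracellular microbes. Gbp8 was at 360.2, 354 and 326 CPM in spleen and 1.06 to 15.6 elsewhere, a log2 fold change of 5.89 ± 0.29 (SE; adjusted p = 1.81e-09, edgeR). Irgm2 was higher by 2.15 ± 0.27 (SE; adjusted p = 2.38e-05, edgeR) and Igtp by 1.06 ± 0.21 (SE; adjusted p = 0.00169, edgeR).

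Among receptors and transducers, Ifnar2, a chain of the type I receptor, was higher in spleen by 1.01 ± 0.17 (SE; adjusted p = 0.00056, edgeR). Mavs, the mitochondrial adaptor of the RNA sensors, was higher by 1.40 ± 0.20 (SE; adjusted p = 9.22e-05, edgeR), and Tmem173 fell by 1.87 on the log2 scale. B cell markers summed to 76.3 to 105 CPM in spleen and at most 42.9 elsewhere, and T and NK cell markers to 21.0 to 31.3 CPM in spleen and at most 29.0 elsewhere; their part in these results was not tested.

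Ganglia and fibers, the 2 sources of sympathetic-associated macrophages, differed for 3 of the 39 genes: 2 were higher in ganglia and 1 lower (edgeR), where 4.11% of all genes were called, 2.85% higher and 1.27% lower. At an unadjusted p below 0.05, 16 were higher and 3 lower, where 19.9% of all genes passed in either direction; DESeq2 called 4 higher and 3 lower, and voom 0 higher and 1 lower. The median log2 fold change of the 39 was 1.01, that of all genes 0.00, and 33 of the 39 values were positive. Of the exceptions, Ifitm2 and Ifitm3 had −1.68 ± 0.54 and −0.90 ± 0.31 (SE; adjusted p = 0.0926 and 0.118, edgeR), neither called.

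Ddx58 was at 38.6, 29.1 and 33.1 CPM in ganglia, and in fibers at 0 in SAM fibers 1, where 672 raw counts lie over the gene, and 7.70 in SAM fibers 2. The libraries did not overlap, and the log2 fold change was 3.04 ± 0.77 (SE; adjusted p = 0.0372, edgeR). Ifit3 was at 41.8, 41.4 and 35.7 CPM in ganglia and 7.77 and 8.33 in fibers, again without overlap, with 2.30 ± 0.60 (SE; adjusted p = 0.041, edgeR). Ifit3 has a near-identical neighbouring copy, Ifit3b, and Oas1a has Oas1g, so their values are uncertain where reads fit both. Irf1, at the levels given above, was lower in ganglia, with −2.67 ± 0.43 (SE; adjusted p = 0.00252, edgeR).

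With DESeq2's size factors in edgeR (RLE scaling) the split was 1 higher (Ddx58) and 3 lower (Irf1, Ifitm2 and Ifitm3). These calls rest on few libraries. Ddx58 lost its call in 15 of 24 alternatives and Ifit3 in 16 of 24. Without SAM fibers 2 the fibers were represented by the library with the high DNA background, and the all-gene median moved from 0.00 to 0.28. Raw counts gave no call among the 39 or among all genes. In raw counts the Irf1 difference was −0.07 (adjusted p = 0.962, edgeR).

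Fibers were compared with the subcutaneous fat around them. Of the 39 genes, 1 was higher in fibers and 0 lower (edgeR), where 4.84% of all genes were called, 1.85% higher and 2.99% lower; at an unadjusted p below 0.05, 1 was higher and 8 lower, where 21.5% of all genes passed in either direction, and DESeq2 called 1 higher and 2 lower. Without SAM fibers 2, which leaves 1 fiber library, the all-gene median moved from 0.00 to −0.18. The median log2 fold change of the 39 was −0.80, that of all genes 0.00, and 7 of the 39 values were positive. The gene that was higher was Irf1, by 2.61 ± 0.49 (SE; adjusted p = 0.00749, edgeR). Its call was lost without sATM 1 (adjusted p = 0.0725), without sATM 2 (0.121) and in raw counts, where the difference was 0.28 (0.853). This comparison shares the fiber libraries with the preceding comparison and the sATM libraries with the next.

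Subcutaneous and visceral fat macrophages differed at the threshold for none of the 39 genes, and all 39 fitted differences had the same sign. The count called was 0 (edgeR; 12 had an unadjusted p below 0.05, all higher in sATM, where 3.72% of all genes passed in either direction, and DESeq2 called 4 and voom 2), and only 6 of all genes were called in this comparison, 0.0392% (0.0196% higher and 0.0196% lower). All 39 log2 differences were positive, from 0.07 to 2.78 with a median of 1.01, where 7054 of all 15289 genes tested were positive and their median was −0.04. Between 35 and 39 of the 39 were positive in each of 25 alternatives.

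Rsad2 had the smallest p: at 41.5 and 23.1 CPM in sATM and 8.26 and 4.92 in vATM, its log2 difference was 2.28 ± 0.50 (SE; adjusted p = 0.145, edgeR). Ifit1 was at 21.4 and 17.5 CPM against 6.35 and 2.95, with 2.06 ± 0.51 (SE; adjusted p = 0.248), and Oas3 at 42.8 and 52.2 against 3.59 and 10.2, with 2.78 ± 0.71 (SE; adjusted p = 0.29). For all 3 the libraries of the 2 fat depots did not overlap. As the 3 were picked for the smallest p in this same comparison, that separation adds nothing to the p-values. The 4 genes that DESeq2 called were these 3 and Irf7.

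No gene of the other interferon lists was called. A positive difference was found for 50 of 56 other interferon-stimulated genes, 12 of 14 MHC class I processing genes, 11 of 13 sensors and adaptors, 9 of 12 immunity-related GTPase and other GBP genes, 7 of 10 receptors and transducers, 7 of 9 negative regulators and 6 of 9 other interferon regulatory factors, but for only 1 of 5 interferon genes. Monocyte markers, 2 of 8 of which were called higher in sATM, summed to 2872 to 3847 CPM in sATM and 3113 to 3677 in vATM; resident adipose macrophage markers summed to 1897 and 6314 CPM in sATM and 8914 and 12464 in vATM; neutrophil markers summed to 29.4 and 81.2 CPM in sATM and 6.58 and 10.4 in vATM. Their part in the result was not tested.

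**Figure D5:**
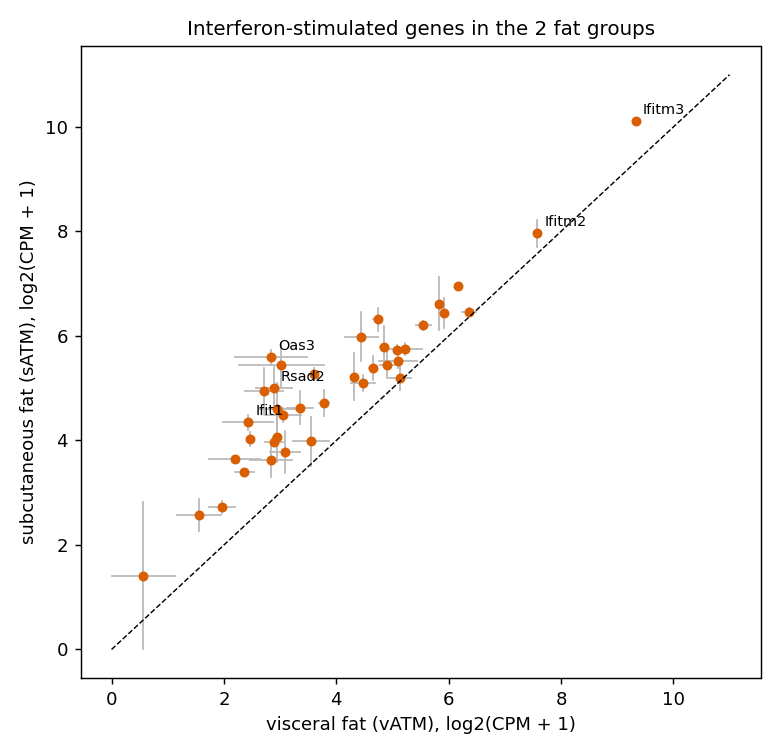
Each of the 39 genes in the 2 fat groups, as the mean of log2(CPM + 1) in vATM (horizontal) and sATM (vertical); grey lines span the 2 libraries of each group and the dashed line marks equal levels. The points lie above the dashed line, with Oas3, Rsad2 and Ifit1 far from it and Ifitm2 and Ifitm3 close to it.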

How the data were processed

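Low-input RNA-seq of total RNA gave 15 libraries in 6 groups. The submitters' processing notes name STAR, HOMER and mm10; the sources used here give neither versions nor the strand setting. Per the file headers and names, the authors deposited 3 tables: gene-body raw counts, estimated counts after removal of DNA contamination (45.3% of values whole), and RPKM. Estimated counts were rounded, scaled by TMM and fitted in edgeR 4.0.16 (R 4.3.3) with 1 mean per group over all libraries; genes passed filterByExpr at a count of 10, leaving 15289, and the common biological coefficient of variation was 0.68. Calls needed a Benjamini-Hochberg adjusted p below 0.05 over all genes and a log2 fold change of at least 1, except the test of any difference. DESeq2 1.42.0, voom (limma 3.58.1), RPKM on log2(RPKM + 0.1) and log2(RPKM + 1), raw counts, other filters and scaling, and leaving out libraries were alternatives. The fit was tested on simulated data.

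The members and lists were chosen with earlier results of these data known. Genes given library by library are the up to 6 called per direction with the largest fold change at 10 CPM or more (for any difference, the 6 smallest p; with no call, the 3 smallest); of other lists, up to 3 called genes with the smallest p. A gene of the pathway lists, counted in their totals, is not reported here by name.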

Additional observations from a re-analysis of the deposited data

How the results depend on the processing

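In the single-gene results, 521 alternatives kept direction and side of the threshold, 64 lost the call, 10 gained one, and 1 reversed: Ifi27l2a in SAM macrophages, at −0.68 in raw gene-body counts. Counts of the 39 genes called follow. Raw gene-body counts gave 9 for any difference, 0 for SAM, 4 for microglia, 2 for spleen, 0 for ganglia against fibers and 0 for fibers against sATM. With no low-count filter there were 12 for spleen, 9 for ganglia against fibers, 4 for fibers against sATM and 3 for sATM against vATM. DESeq2 gave 8, 7, 3 and 4 for these in turn, and voom gave 13 for spleen, 1 for ganglia against fibers and 2 for sATM against vATM. On log2(RPKM + 1), fibers against sATM gave 3. Without the SAM fibers group there were 17 for SAM and 9 for spleen. Without SAM fibers 1 and microglia 2 together, an alternative chosen after seeing the data, there were 9 for spleen, 2 for fibers against sATM and 1 for sATM against vATM. Leaving out 1 library at a time gave 20 to 34 for any difference, 8 to 16 for SAM, 15 to 25 for microglia, 2 to 16 for spleen, 1 to 18 for ganglia against fibers, 0 to 14 for fibers against sATM and 0 to 1 for sATM against vATM; the highest values for spleen and both fiber comparisons came without SAM fibers 2, and the lowest for spleen without SpM 1. The number of all genes called moved as well. In SAM it was 1399 in the main fit, 17 in raw counts, 2038 in DESeq2 and 740 without the SAM fibers group. Without SAM fibers 2, which leaves 1 fiber library, the all-gene medians also moved, as given above. The cause of these changes was not tested.

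DESeq2's size factors in edgeR (RLE) moved the all-gene median from 0.02 to 0.19 in SAM, from 0.00 to −0.25 in ganglia against fibers and from 0.00 to 0.28 in fibers against sATM. Whether replicate numbers pair the samples was not settled. Deviations from the group mean were correlated over genes. Of 33 same-numbered pairs, 16 correlated above 0.1 (−0.381 to 0.639), among them the 10 pairs of replicate 1 outside the fibers (0.18 to 0.639). In a group of 2 libraries these deviations mirror each other, so the pairs are not independent and their count cannot decide the question. With a replicate block the counts were 20 for any difference, 10 for SAM, 20 for microglia, 7 for spleen, 3 for ganglia against fibers, 1 for fibers against sATM and 0 for sATM against vATM; of the 3 in ganglia against fibers only Irf1 was shared, Ddx58 (adjusted p = 0.061, edgeR) and Ifit3 (0.0688) being replaced by Cmpk2 and Samd9l, and Ifih1 was not called in spleen (0.0537). Depth limits genes near the floor of 3 counts, and groups of 2 libraries limit every fiber and fat comparison.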
